A study of Mus musculus with 2 samples.

Results

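The genes described here are 10 genes of fibroblast growth factor (FGF) signalling, compared in muscle stem cells of dKO and WT mice. They are the 4 receptor genes Fgfr1, Fgfr2, Fgfr3 and Fgfr4, the ligand genes Fgf2 and Fgf7, and the inhibitor genes Spry1, Spry2, Spry4 and Spred1. They were chosen by name among 24532 gene IDs of a deposited count table, where each was found by its Entrez gene ID and valued as the sum of its transcript rows, 22 rows in all. The cells came from limb muscle of male mice on a C57BL/6 background. They were sorted as Vcam1-positive cells without Sca1, CD31 or CD45, and their RNA was taken without culture. The dKO mice carried Pax7-CreER, which encodes a Cre recombinase that tamoxifen switches on in Pax7-expressing cells, an allele that this Cre deletes, and Esr2–/–, which removes estrogen receptor beta. The protocol text entered for both samples gives oral tamoxifen (20 mg/mL in corn oil) on 5 consecutive days to mice aged 3 months. Both sample titles carry the tag 6M, which the labels do not spell out, and the age at which the cells were taken is not given in another label. The labels leave unsaid whether the WT mice carried the Cre and how many mice went into a library. There was 1 dKO and 1 WT library, so no difference below has a replicate check or a test, and each value compares these 2 libraries.

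Most FGFs are secreted proteins that bind receptor tyrosine kinases together with heparan sulfate on the cell surface. The active receptor recruits adaptor proteins and switches on the Ras-ERK cascade, and ERK in turn induces genes whose products damp the signal, among them the Sprouty and Spred proteins. In skeletal muscle, FGF drives activation and proliferation of the stem cells, Fgfr1 and Fgfr4 are the receptors best known in them, and Spry1 is known as a brake on FGF signal that quiescent stem cells carry.

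The dKO library held 43699831 and the WT library 36636680 counts. Library sizes were TMM-scaled (trimmed mean of M values) and counts are given as CPM, counts per mega-count of scaled library size. A level per length divides the CPM of each row by its length in kilobases (RPKM), so that genes can be compared. The log2 ratio of a gene is that of dKO CPM + 1 over WT CPM + 1, and a fold is a ratio of CPM with an exact conditional binomial 95% interval, which covers counting error only. A gene with 10 or more counts in the higher library was called measured (14885 genes), and those whose log2 ratio reached 1 or −1 were called 2-fold apart. Esr2 had 45 counts in dKO and 71 in WT, which checks nothing about the label, since the labels do not say which part of it was removed. Pax7, which is not a sort antigen, had 12620 counts in dKO and 22335 in WT. Of the genes behind the sort, Vcam1 had 42383 in dKO and 23795 in WT. Those sorted against were lower in dKO: Ly6a (Sca1) had 386 in dKO and 2316 in WT. Pecam1 (CD31) had 1673 in dKO and 4745 in WT, and Ptprc (CD45) 17 in dKO and 200 in WT. All 13 endothelial markers lay below 0, with a summed level of 315 CPM in dKO and 753 CPM in WT, and so did all 14 immune markers, with 73.0 and 230 CPM in dKO and WT. Fibro-adipogenic progenitor markers had 10 of 12 below 0 and summed to 4517 CPM in dKO and 6115 CPM in WT. None of the markers of these 3 lists was at 0 in either library. Their part in the results was not tested, and in bulk RNA fewer cells of a type and less RNA per cell cannot be told apart.

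Of the FGF genes, the receptors Fgfr1 and Fgfr4 and the inhibitor Spry1 were abundant in both libraries, while the ligands Fgf2 and Fgf7 were low in both. Spry2, Spry4 and Spred1 were 1.34-fold to 1.61-fold higher in dKO, and Spry1 and Fgfr2 were 1.36-fold and 1.49-fold lower. All 10 FGF genes were measured and 0 were 2-fold apart, against 6.22% of measured genes. By direction, 1.92% of all measured genes were 2-fold higher in dKO and 4.30% 2-fold lower. Of the 10 genes, 4 had a log2 ratio above 0 (Fgfr1, Spry2, Spry4 and Spred1) and 6 below, with a median of −0.06 beside −0.02 for all measured genes. At a smaller size, 2 genes (Spry2 and Spred1) were at least 1.5-fold higher, against 8.98% of measured genes, and 0 were 1.5-fold lower, against 13.1%. Spry2 and Spred1 were inside the 1.5-fold line with library totals alone (log2 ratios of 0.35 and 0.43). They were also inside it with a trend on abundance and transcript length removed (0.33 and 0.58). On the lower side, Fgfr2 (−0.79) and Spry1 (−0.69) passed the 1.5-fold line with library totals, and Spry1 (−0.87) with the trend removed. By the most abundant transcript row alone, Fgfr2 was at 0.05 and Spry1 at −0.09. The median of all measured genes was −0.24 with library totals, in place of −0.02. The counting interval of the fold excluded 1 for 7 of the 10 and for 72.7% of measured genes, a like share. It included 1 for Fgfr3, Fgf2 and Fgf7.

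**Figure D1:**
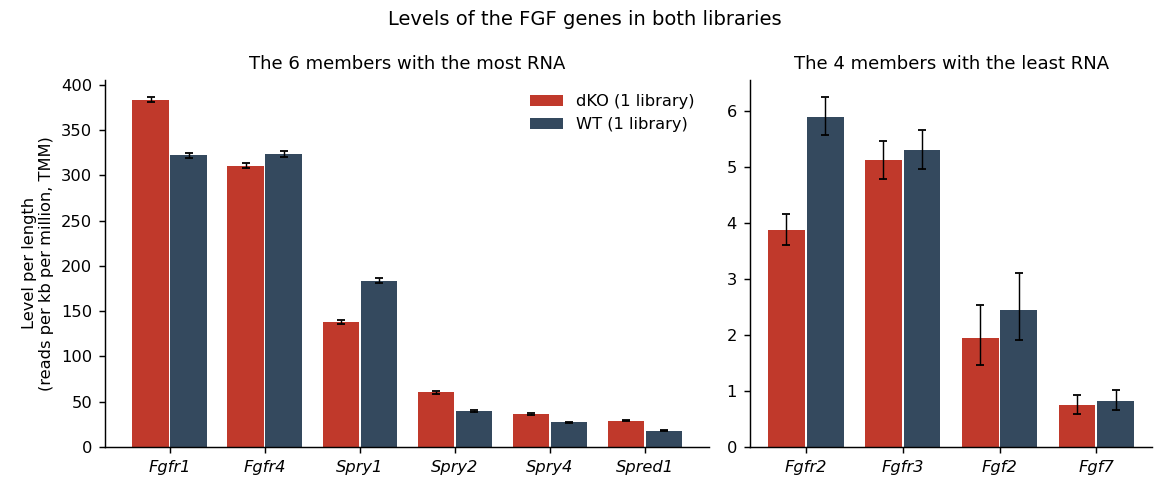
Level per length (RPKM on TMM-scaled library sizes) of the 10 genes, with dKO bars left of WT bars and black lines for the 95% Poisson interval of the counts. Fgfr1 and Fgfr4 stand between 311 and 383, Spry1 is next, and the other receptors and both ligands are below 6.

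The receptor RNA came almost wholly from Fgfr1 and Fgfr4. Fgfr1 (Entrez ID 14182, chromosome 8, 25518759 to 25575718 on GRCm38) had 75972 counts in dKO and 63664 in WT, or 1898 CPM in dKO and 1591 CPM in WT. Fgfr4 (14186, chromosome 13, 55152818 to 55168759) had 39118 counts in dKO and 40699 in WT, or 977 CPM in dKO and 1017 CPM in WT. Per length the pair was close: Fgfr1 stood at 383 RPKM in dKO and 322 RPKM in WT, and Fgfr4 at 311 RPKM in dKO and 323 RPKM in WT. Their counting intervals overlapped in WT and did not in dKO. Together they were among the most abundant genes of these cells, since 98.7% of measured genes had a lower mean level per length than Fgfr1 and 98.6% a lower one than Fgfr4. Of the summed level per length of the 4 receptors, Fgfr1 made up 54.5% in dKO and 49.0% in WT, and Fgfr4 44.2% in dKO and 49.3% in WT.

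Fgfr1 was 1.19-fold higher in dKO (1.18 to 1.21), a log2 ratio of 0.25 that 72.7% of measured genes lay below. This depended on the scaling: the log2 ratio was 0.00065 with library totals alone, where the median of all measured genes was −0.24 in place of −0.02, and −0.0089 once that trend was removed. Fgfr4 was 0.961-fold of WT (0.948 to 0.974), a log2 ratio of −0.06 that 47.2% of measured genes lay below. With that trend removed the Fgfr4 value was −0.46. The sum of the 4 receptors was 2917 CPM in dKO and 2661 CPM in WT.

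Fgfr2 and Fgfr3 were far lower in level. Fgfr2 (14183, chromosome 7, 130162451 to 130266808) had 804 counts in dKO and 1194 in WT, or 20.1 CPM in dKO and 29.8 CPM in WT. Fgfr3 (14184, chromosome 5, 33721724 to 33737068) had 851 counts in dKO and 889 in WT, or 21.3 CPM in dKO and 22.2 CPM in WT. Per length, Fgfr2 had 3.87 RPKM in dKO and 5.90 RPKM in WT, and Fgfr3 5.11 RPKM in dKO and 5.30 RPKM in WT, so that Fgfr3 stood above Fgfr2 in dKO, while in WT their counting intervals overlapped. Each made up less than 1% of the receptors' summed level per length, with 0.550% in dKO and 0.898% in WT for Fgfr2 and 0.727% in dKO and 0.807% in WT for Fgfr3. Fgfr2 was 1.49-fold lower in dKO (1.36 to 1.63), with a log2 ratio of −0.55 that 14.4% of measured genes lay below. Fgfr3 was 0.957-fold of WT (0.870 to 1.05), a difference within counting error.

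**Figure D2:**
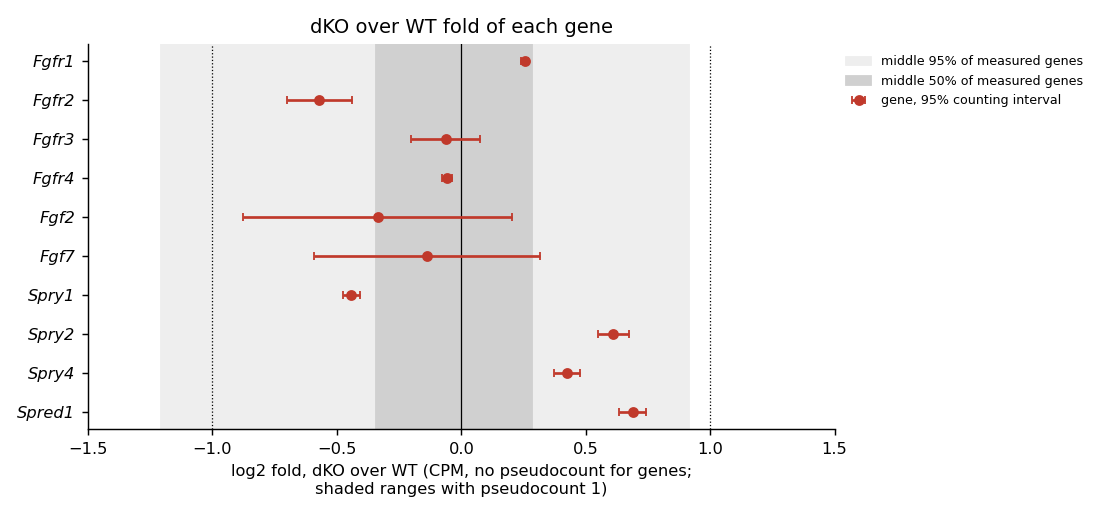
Log2 fold of dKO over WT for each gene (red points, with 95% counting intervals), over the range of all measured genes (light grey, middle 95%; dark grey, middle 50%), with dotted lines at 2-fold. Spry2, Spry4 and Spred1 lie right of the dark band and Spry1 and Fgfr2 left of it, and no gene reaches a dotted line.

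The transcript rows of both low receptors divided their counts differently in the 2 libraries. The Fgfr2 row of 5198 bases had 788 counts in dKO and 753 in WT, while the row of 4847 bases had 16 in dKO and 437 in WT and the row of 4856 bases 0 in dKO and 4 in WT. The lower sum of Fgfr2 therefore lay in the row of 4847 bases, which was 27.3-fold lower (16.6 to 48.2), and the row of 5198 bases alone gave a log2 ratio of 0.05 (scaled on the table of top rows). For Fgfr3, the row of 4245 bases had 0 counts in dKO and 335 in WT, and the row of 4222 bases had 304 in dKO and 10 in WT. The row of 4219 bases had 357 counts in dKO and 427 in WT, that of 3960 bases 171 in dKO and 89 in WT, and that of 4020 bases 19 in dKO and 28 in WT. With the dKO count set to a floor of 3, the Fgfr3 row of 4245 bases was 112-fold lower in dKO. Its counting interval ran from 90.3-fold upward.

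Such divisions were common in the table. Of 4077 gene IDs with several rows and 100 or more counts in each library, 769 (18.9%) had a different top row in the 2 libraries, and 578 (14.2%) had a row with 100 or more counts in 1 library and 0 in the other. The rows carry a length but no transcript name, so none is assigned here to a splice form. Fgfr1, with 3 rows, was one of the 769, since its top row was that of 5025 bases in dKO and that of 5019 bases in WT. The low receptors kept their top rows, of 5198 bases in Fgfr2 and 4219 bases in Fgfr3, in both libraries. The Fgfr1 row of 5025 bases took 37.9% of the gene's counts in dKO and 32.2% in WT, the row of 5019 bases 36.0% in dKO and 39.1% in WT, and the row of 4758 bases 26.1% in dKO and 28.7% in WT. Fgfr4 has a single row.

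**Figure D3:**
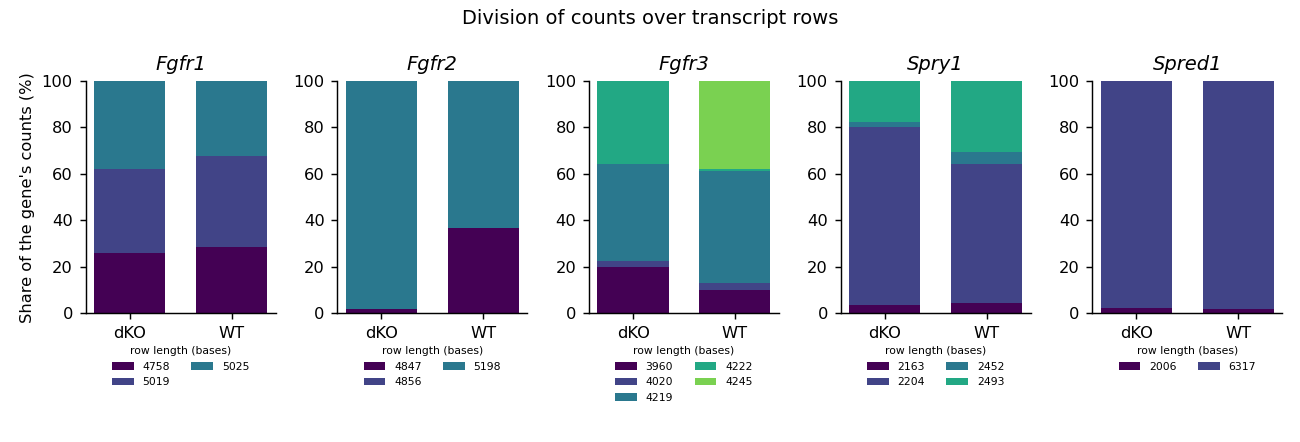
Share of each gene's counts (percent) taken by each of its transcript rows, named by length in bases, in the dKO (left bar) and WT (right bar) library, for the 5 genes with several rows. Fgfr2 and Fgfr3 each have a row that takes 36.6% or more of the WT counts and 1.99% or less of the dKO counts, while no row of Fgfr1 or Spred1 has such a gap.

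Both ligand genes were low in level, with 32.1% of measured genes below Fgf2 and 19.4% below Fgf7 in mean level per length. Fgf2, the basic FGF long used to grow muscle stem cells in culture (14173, chromosome 3, 37348477 to 37410106), had 54 counts in dKO and 68 in WT, or 1.35 CPM in dKO and 1.70 CPM in WT. Fgf7, the keratinocyte growth factor, which signals through a splice form of Fgfr2 (14178, chromosome 2, 126034658 to 126091185), had 80 counts in dKO and 88 in WT, or 1.999 CPM in dKO and 2.20 CPM in WT. Their folds of dKO over WT were 0.794 (0.545 to 1.15) and 0.909 (0.663 to 1.24), so no difference was detectable at this depth. The single Fgf2 row is only 695 bases long, and Fgf2 overlaps Nudt6, its known antisense partner (157 counts in dKO and 170 in WT). No source used here gives the strand setting, so reads from their overlap cannot be told apart. Fgf7 lies within the span of Fam227b, which had 0 counts in both libraries. Per length, Fgf2 had 1.94 RPKM in dKO and 2.45 RPKM in WT, and Fgf7 0.748 RPKM in dKO and 0.823 RPKM in WT, far below Fgfr1.

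Among all measured genes, 6.22% were 2-fold apart and 7801 of 14885 lay below 0. Of the 20 other FGF genes, 12 were measured, 0 were 2-fold apart and 9 of the 12 were below 0, with a median log2 ratio of −0.37. The most abundant per length were Fgf11 and Fgf13, members of the subgroup that stays inside the cell. Fgf11 had 1110 counts in dKO and 1479 in WT (log2 ratio −0.40), and Fgf13 had 739 in dKO and 632 in WT (0.21). Another 5 FGF genes are named after their values were seen. Fgf1, the acidic FGF, had 224 counts in dKO and 439 in WT and had the lowest log2 ratio of the list (−0.86, a fold of 0.510). Another 3 measured genes had a lower fold at fewer counts. Fgf18 had 44 in dKO and 100 in WT (0.440), and Fgf4 had 4 in dKO and 10 in WT (0.400, with an interval that included 1). The other one, Fgf21, had 0 counts in dKO and 14 in WT, 4.67-fold lower against the floor, with an interval from 3.32-fold upward. Fgf23 had 22 in dKO and 0 in WT, 7.33-fold higher against the floor, with an interval from 5.48-fold upward. With Fgf21 and Fgf23 at these floor values the list median was again −0.37. Fgf6, known as a skeletal muscle FGF, was listed at 0 in both, where the floor is 0.0750 CPM.

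Log2 ratios of the inhibitor genes ran from −0.44 to 0.68, with Spry1 lower and the other 3 higher in dKO. Sprouty proteins block the Ras-ERK branch downstream of receptor tyrosine kinases, and Spred1 acts on the same branch by bringing neurofibromin to Ras. The 250 bases before the RefSeq start of Spry1, Spry2 and Spred1 are shown because Spry2 and Spred1 were the genes farthest above 0 and Spry1 lay on the other side. They are read from RefSeq on GRCm38.p6, the patch release of the assembly that mm10 names. Capitals mark a GC box (GGGCGG, either strand) or a CCAAT box (CCAAT, either strand).

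Spry1 (chr3:37639697-37639946, plus strand): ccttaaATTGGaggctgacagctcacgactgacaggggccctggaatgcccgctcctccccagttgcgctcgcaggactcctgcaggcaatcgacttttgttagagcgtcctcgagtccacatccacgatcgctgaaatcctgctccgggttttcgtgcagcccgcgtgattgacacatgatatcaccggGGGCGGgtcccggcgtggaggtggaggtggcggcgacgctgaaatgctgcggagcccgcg

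Spry2 (chr14:105896820-105897069, minus strand): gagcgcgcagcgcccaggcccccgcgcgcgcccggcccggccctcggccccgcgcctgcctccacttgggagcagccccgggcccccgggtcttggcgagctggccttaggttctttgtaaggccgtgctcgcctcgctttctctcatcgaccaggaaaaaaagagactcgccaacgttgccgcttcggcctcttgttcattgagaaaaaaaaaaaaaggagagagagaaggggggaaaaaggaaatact

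Spred1 (chr2:117120821-117121070, plus strand): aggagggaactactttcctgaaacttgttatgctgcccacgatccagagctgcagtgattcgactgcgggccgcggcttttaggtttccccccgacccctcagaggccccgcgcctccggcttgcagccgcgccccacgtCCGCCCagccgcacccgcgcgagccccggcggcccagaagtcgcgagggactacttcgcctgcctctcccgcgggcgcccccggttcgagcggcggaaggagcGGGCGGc

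Spry1 held 1 GC box and 1 CCAAT box, Spred1 held 2 GC boxes and no CCAAT box, and Spry2 held neither. A GC box was found in 32.7% and a CCAAT box in 33.8% of 32851 such windows. None of the 3 windows held the letters of an ETS site (CCGGAAG, in 6.91% of windows), an AP-1 site (TGANTCA, 6.75%), a CRE half-site (TGACG, 17.8%), an E-box (CAGCTG, 13.0%) or a TATA box (TATAAA, 12.4%). Both strands were searched, and none of the marked sites overlapped another. The GC content was 62.4% for Spry1, 62.4% for Spry2 and 70.8% for Spred1. These letters are descriptions of the windows, and nothing about a factor follows from them.

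Spry1 (24063, chromosome 3, 37639947 to 37644599) was the most abundant inhibitor, with 12429 counts in dKO and 16878 in WT, or 311 CPM in dKO and 422 CPM in WT. It was 1.36-fold lower in dKO (1.33 to 1.39), with a log2 ratio of −0.44 that 19.1% of measured genes lay below. Its 4 rows did not share this evenly. The row of 2204 bases had 9554 counts in dKO and 10084 in WT, which is 76.9% of the Spry1 counts in dKO and 59.7% in WT. The other 3 rows summed to 2875 counts in dKO and 6794 in WT and were 2.36-fold lower (2.26 to 2.47). The row of 2493 bases had 2216 counts in dKO and 5152 in WT, that of 2452 bases 239 in dKO and 889 in WT, and that of 2163 bases 420 in dKO and 753 in WT. All 4 rows were lower in dKO, and the row of 2204 bases was nearest to WT, with a log2 ratio of −0.08. By the row of 2204 bases on the table of top rows, the Spry1 value was −0.09.

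Spry2 (24064, chromosome 14, 105891947 to 105896819) had 5057 counts in dKO and 3310 in WT, or 126 CPM in dKO and 82.7 CPM in WT. It was 1.53-fold higher in dKO (1.46 to 1.60), and 91.6% of measured genes had a lower log2 ratio than its 0.60. Spry4 (24066, chromosome 18, 38586247 to 38601347) had 6703 counts in dKO and 4989 in WT, or 167 CPM in dKO and 125 CPM in WT, and was 1.34-fold higher (1.29 to 1.39). Its log2 ratio of 0.42 stood above that of 83.5% of measured genes. Spred1 (114715, chromosome 2, 117121071 to 117182279) had 6973 counts in dKO and 4324 in WT, or 174 CPM in dKO and 108 CPM in WT. It was 1.61-fold higher (1.55 to 1.68), with a log2 ratio of 0.68 above that of 93.8% of measured genes. Both Spred1 rows were higher in dKO, with 6823 counts in dKO and 4247 in WT in the row of 6317 bases and 150 in dKO and 77 in WT in the row of 2006 bases. These 3 log2 ratios stood above 0, and that of Spry1 below 0, under the as-reported setting and all 8 alternatives for single genes. The pseudocount and count minimum settings cannot change a sign, so only the top row, the other scalings and the trend removal could have. Spry4 was 0.17 with library totals alone and 0.25 with the trend removed.

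The makeup of the inhibitors differed between the libraries more than their sum. Spry1, Spry2, Spry4 and Spred1 summed to 779 CPM in dKO and 737 CPM in WT, and the 3 Sprouty genes alone to 604 CPM in dKO and 629 CPM in WT. The summed level per length of all 4 inhibitors went the other way, with 264 RPKM in dKO and 268 RPKM in WT. Per length, Spry1 made up 52.3% of the inhibitors in dKO and 68.5% in WT, Spry2 23.0% in dKO and 14.8% in WT, Spry4 13.8% in dKO and 10.1% in WT, and Spred1 10.9% in dKO and 6.62% in WT. Spry1 thus stood 2.28-fold above Spry2 per length in dKO and 4.64-fold above it in WT. The order of levels per length was Spry1, Spry2, Spry4 and Spred1 in both libraries, from 138 to 28.9 RPKM in dKO and from 184 to 17.8 RPKM in WT.

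**Figure D4:**
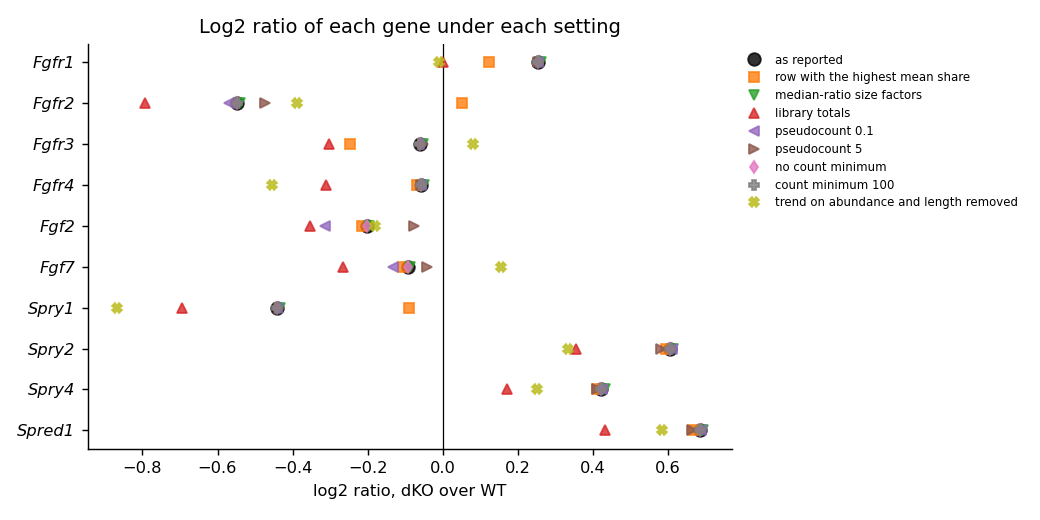
Log2 ratio of dKO over WT for each gene under the reported setting (black circles) and each alternative (coloured marks). Spry2, Spry4 and Spred1 stay right of 0 and Spry1, Fgfr4 and Fgf2 left of it, while Fgfr1, Fgfr2, Fgfr3 and Fgf7 each have a mark at or across 0.

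Other genes along the pathway were read in the same way, from lists of textbook members. For comparison with each list below, 1.92% of all measured genes were 2-fold higher in dKO and 4.30% were 2-fold lower. Of the 14885 measured genes, 7084 lay above 0. The positive medians of 3 lists depended on the setting. With library totals alone the median was −0.07 for heparan sulfate enzymes, −0.07 for the Ras-ERK cascade and −0.08 for ERK targets. The median of all genes also shifted there, to −0.24. With the trend removed the 3 medians were −0.008, 0.00036 and −0.05 in that order, beside 0.006 for all genes. Among 17 measured co-receptors and ligand-binding proteins, 0 were 2-fold apart and 9 were above 0, with a median log2 ratio of 0.0019. Sdc4, a syndecan that carries heparan sulfate and is a surface marker of muscle stem cells, had 194985 counts in dKO and 119223 in WT and was 1.63-fold higher (1.62 to 1.65). The log2 ratio of Sdc4 was 0.71, and 0.46 both with library totals and with the trend removed. Hspg2, the gene of the basement membrane proteoglycan perlecan, had 58489 counts in dKO and 71668 in WT (log2 ratio −0.29). Among 15 heparan sulfate enzymes, 0 were 2-fold higher and 2 lower, with 10 above 0 and a median of 0.18. Sulf2, a sulfatase that trims heparan sulfate outside the cell, had 341 counts in dKO and 825 in WT (log2 ratio −1.18), and the sulfotransferase gene Hs3st1 had 98 in dKO and 241 in WT (−1.03). Both are low in level, and both were inside the 2-fold line with a pseudocount of 5 or the trend removed. Sulf1, the other sulfatase and named after its value was seen, was far more abundant, with 15258 counts in dKO and 10941 in WT (0.48).

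From the receptor to ERK, 0 of 24 adaptor and cascade genes were 2-fold apart, 14 were above 0, and the median was 0.18. Mapk3, the gene of ERK1, had a log2 ratio of −0.06 (3327 counts in dKO and 3469 in WT). The adaptor gene Grb2, the highest of the list and picked out after its value was seen, lay just inside the 2-fold line at 0.98 (6345 in dKO and 3203 in WT). Grb2 was at 0.73 both with library totals and with the trend removed. The other inhibitors of FGF receptor and ERK signal had 0 of 14 measured genes 2-fold apart, 8 below 0 and a median of −0.21. Spred2, a relative of Spred1, had 1815 counts in dKO and 2891 in WT (log2 ratio −0.66), opposite in sign to Spred1. Tesk1, a kinase that binds Sprouty proteins, had a value of 0.17 (2706 in dKO and 2399 in WT). Il17rd (Sef), an FGF feedback inhibitor named after its value was seen, had 1822 counts in dKO and 3034 in WT (−0.72).

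ERK-dependent transcription targets included 2 of 15 that were 2-fold higher and 0 lower, with 10 above 0 and a median of 0.18. These were the AP-1 subunit gene Fosl1, at 4.94-fold (4.75 to 5.15; 14476 counts in dKO and 2927 in WT), and Myc, at 2.05-fold (2.01 to 2.09; 31764 in dKO and 15513 in WT), both also reached by other signals. Myc was inside the 2-fold line with library totals alone (log2 ratio 0.78) and with the trend removed (0.58). Of all measured genes, 1.92% were 2-fold higher in dKO, 4.30% were 2-fold lower, and 7084 of 14885 lay above 0. The counting interval of the fold excluded 1 for 72.7% of measured genes. Of the 15 targets, this interval lay above 1 for 8, below 1 for 4 and included 1 for 3. Those below 1 were Fos at 0.780 (0.773 to 0.786), Etv4 at 0.758 (0.573 to 0.999), Etv1 at 0.741 (0.605 to 0.907) and Dusp4 at 0.741 (0.639 to 0.858). These and the next pair are named after their values were seen. Etv5 had 2456 counts in dKO and 2475 in WT, a fold of 0.992 (0.938 to 1.05), and Dusp6, an ERK phosphatase, had 1028 in dKO and 1021 in WT, a fold of 1.01 (0.922 to 1.10). With library totals alone their log2 ratios were −0.26 for Etv5 and −0.24 for Dusp6, beside a median of −0.24 for all measured genes. With the trend removed they were −0.07 for Etv5 and 0.04 for Dusp6.

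**Figure D5:**
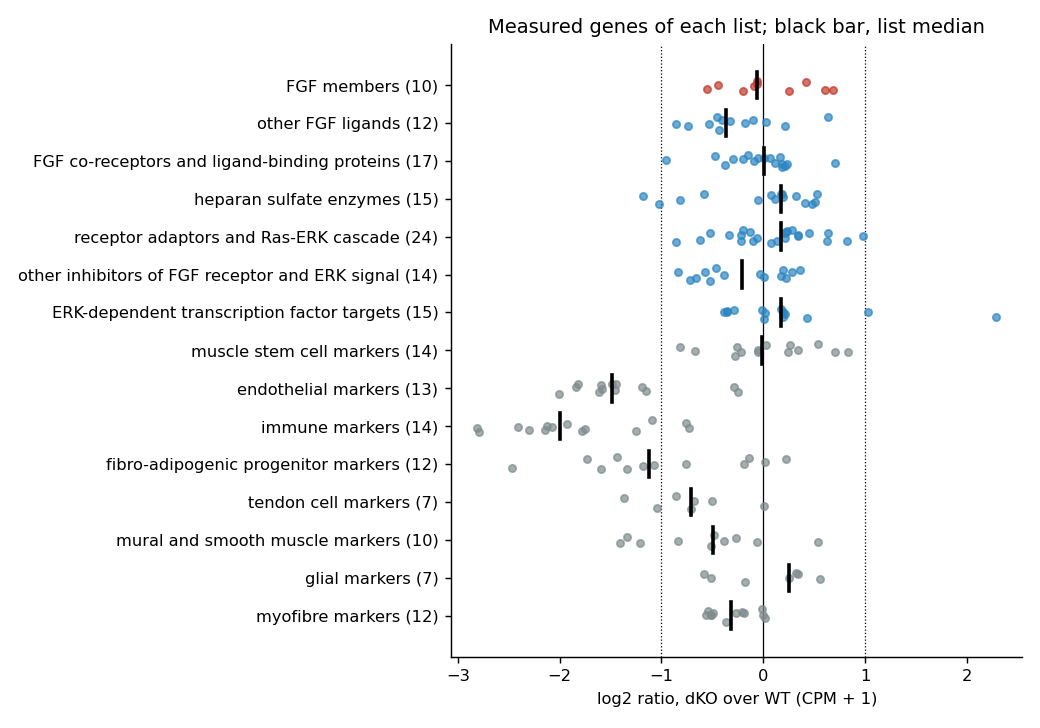
Log2 ratio of dKO over WT for each measured gene (points) of the 10 FGF genes (red), the 6 lists of other pathway genes (blue) and the 8 lists of cell type markers (grey), with black bars for the medians and dotted lines at 2-fold. Medians of the pathway lists lie between −0.37 and 0.18, and those of endothelial, immune and progenitor markers between −2.001 and −1.12.

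Markers of other cell types lay farther from 0 than any of the 10 genes in several lists. Median log2 ratios were −1.48 for endothelial, −2.001 for immune, −1.12 for fibro-adipogenic progenitor, −0.71 for tendon cell and −0.50 for mural markers, against −0.01 for muscle stem cell markers, of which 7 of 14 were above 0. The muscle stem cell markers ran from −0.82 to 0.83. Their median was −0.26 with library totals and −0.39 with the trend removed, where that of endothelial markers was −1.73 and −1.51. Glial markers had a median of 0.25 and myofibre markers one of −0.32. Of the 10 FGF genes, 6 were on the same side of 0 as the endothelial, immune and progenitor medians, with Fgfr2 (−0.55) and Spry1 (−0.44) the lowest. The other 4, Fgfr1, Spry2, Spry4 and Spred1, were on the opposite side. Over all 14885 measured genes, 7801 lay below 0 and 7084 above. By its top row Fgfr2 was at 0.05. The cells that the RNA of each FGF gene came from were not tested.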

How the data were processed

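RNA of sorted muscle stem cells was measured in 1 dKO and 1 WT library, grouped by the genotype labels. The deposited values are raw read counts, 1 row per transcript with a gene ID and a length, per the file headers. TopHat2 2.0.9, bedtools, edgeR and mm10 are named, per the submitters' processing notes, with no role or order. No source used here gives the counting rule, annotation or strand setting, so overlapping genes, near-identical copies and rows that share reads cannot be resolved. The top 2 rows had equal counts in both libraries in 1 of 4459 gene IDs with several rows and 100 or more counts in a row. No read-level check of double counting was possible.

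The 36780 rows were summed to 24532 gene IDs, of which 24462 matched a RefSeq symbol on GRCm38; the others took 0.401% of the dKO and 0.314% of the WT counts. TMM factors from edgeR 4.0.16 (R 4.3.3) were 0.916 for dKO and 1.09 for WT, and DESeq2 1.42.0 gave the median-ratio factors. With 1 library a group no test was run. CPM had a pseudocount of 1 in log2 ratios, and the floor was 3 counts per library. Intervals (95%) are exact conditional binomial for folds and exact Poisson for counts, and cover counting error only. The arithmetic of the folds, intervals and calls was checked on simulated counts, which tests nothing about these 2 libraries.

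The text names all 10 FGF genes and, from each pathway list, up to 4 of the genes 2-fold apart, by size of log2 ratio, or the 2 most abundant per length where fewer than 2 were. Exceptions are said in place. The genes, lists and rules were chosen with earlier results of these data known. Alternatives were the top row, other scalings, pseudocounts of 0.1 and 5, no count minimum or one of 100, a 1.5-fold rule, and removal of a cubic trend on abundance and length. The Cre-deletable allele of the genotype and a gene that this naming rule chose are not reported here. Promoter sequences came from RefSeq tables, in which 8 of the 10 genes had a window.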

Additional observations from a re-analysis of the deposited data

How the results depend on the processing

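No paired analysis was possible because each group has 1 library, and for the same reason no library could be left out. The count of FGF genes 2-fold apart was 0 under each alternative, except that 2 were higher with the 1.5-fold rule. Their median log2 ratio ran from −0.28 with library totals to 0.10 with a count minimum of 100, where Fgf2 and Fgf7 drop out. By the top row, Fgfr2 was 0.05 and Spry1 −0.09. With the trend removed, Fgfr1 was −0.0089, Fgfr3 0.08, Fgf7 0.15, Fgfr4 −0.46 and Spry1 −0.87. Beyond the trend and top-row settings, the cause of a shift was not tested.

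Over all genes, 286 were 2-fold higher and 640 lower. The counts were 474 and 936 by the top row, 130 and 1040 with library totals, 698 and 1653 with a pseudocount of 0.1, 154 and 187 with one of 5, 1336 and 1955 at 1.5-fold, and 307 and 426 with the trend removed. Genes 2-fold apart in the pathway lists moved as follows. By the top row they were 2 for other ligands, 1 for heparan sulfate enzymes and 1 for other inhibitors. With library totals they were 3 for heparan sulfate enzymes and 1 each for other ligands, co-receptors, the Ras-ERK cascade, other inhibitors and ERK targets. With a pseudocount of 0.1 they were 3 for other ligands and 1 for the cascade, and with one of 5 they were 0 for heparan sulfate enzymes. At 1.5-fold they were 3 for other ligands, 2 for co-receptors, 3 for heparan sulfate enzymes, 6 for the cascade and 3 for other inhibitors. With the trend removed they were 0 for heparan sulfate enzymes and 1 for ERK targets. Depth limits Fgf2 and Fgf7, whose intervals span 0.545 to 1.15 and 0.663 to 1.24.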
